A study of Mus musculus with 4 samples.

Results

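The Hox genes encode the homeodomain transcription factors that mark position along the body axis, and they were examined here in mouse embryonic fibroblasts (MEFs), primary cells grown from embryos. The 39 protein-coding Hox genes of the mouse were taken by symbol, a cluster letter from a to d followed by a paralogue number, from the 55487 genes of the count table, of which 21936 were protein-coding. The symbols, and no measured value, chose the members. They lie in 4 clusters of the GRCm38 genome: HoxA with 11 genes at chr6:52155590-52260880 on the minus strand, HoxB with 10 genes at chr11:96194316-96368256, HoxC with 9 genes at chr15:102921103-103036852 and HoxD with 9 genes at chr2:74668310-74765142, the last 3 on the plus strand.

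RNA was sequenced from wild-type MEFs of C57BL/6J embryos, a mixed primary culture that carries no transgene. The control MEFs were left untreated, and the PEDF-treated MEFs received pigment epithelium-derived factor, a secreted protein of the serpin family, at 100 ng/mL for 24 h. Each of 2 experiments gave 1 control and 1 PEDF library, and by the design text of the series each experiment used MEFs from its own embryos, so that the comparison of experiments is one of 2 cell preparations. The labels give the cells as passage 2, whereas the text of the study names a later passage.

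Hox genes of one cluster are transcribed from the same strand, and their order along the chromosome follows the order of the body regions in which they are switched on, from the head-side paralogues at one end to the tail-side paralogues at the other. Genes with the same number in different clusters are paralogues that descend from one ancestral gene and often act in place of each other. In the limb the posterior genes of HoxA and HoxD pattern the segments from shoulder to digits, and fibroblasts taken from adult skin of different sites differ in the Hox genes they keep expressing.

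The libraries held 14722848 to 18144640 counts, of which 0.0498% to 0.0537% fell on Hox genes, and TMM scaling factors lay between 0.983 and 1.01. All 8 fibroblast markers examined were at or above 1 TPM (a level corrected for gene length and library depth) in every library, and their levels summed to 11463 to 15388 TPM. The 4 endothelial markers summed to 5.92 to 6.24 TPM, the 4 macrophage markers to 43.4 to 51.2 TPM and the 6 neural markers to 14.9 to 16.7 TPM, and no listed marker was at 0 in all libraries. Markers of cartilage (1236 to 1606 TPM) and of skeletal muscle (286 to 391 TPM) were higher. In RNA from whole cultures, fewer cells of a type and less RNA per cell cannot be told apart.

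Most Hox genes were expressed in these MEFs. In all 4 libraries 34 of the 39 genes were at or above 1 TPM, against 55.7% of all protein-coding genes, and the summed level of the 39 genes was 541 and 588 TPM in the control libraries and 565 and 581 TPM in the PEDF libraries of experiments 1 and 2. The 5 genes that missed this level in at least 1 library were Hoxb1, Hoxb13, Hoxd1, Hoxd3 and Hoxd4. Above 10 TPM in every library were 19 genes, above 20 TPM were 8, and above 40 TPM were Hoxb9, Hoxd13 and Hoxa5. HoxA gave the largest part of the summed level, 33.1% to 34.7% over the libraries, followed by HoxB with 25.5% to 27.8%, HoxC with 22.7% to 24.7% and HoxD with 14.7% to 17.7%.

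**Figure D1:**
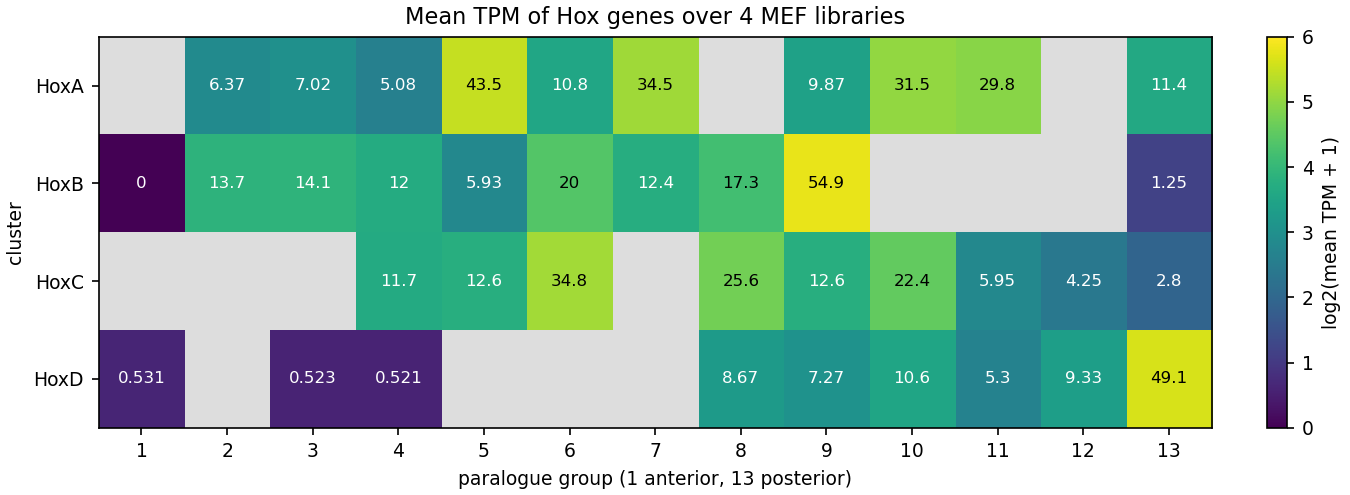
Mean TPM over the 4 libraries of 38 Hox genes, with the clusters as lines of the grid, the paralogue group on the horizontal axis and the colour showing log2(mean TPM + 1). Grey fields are paralogues that the cluster does not have or that are not shown. The first 3 HoxD genes, all near 0.5 TPM, stand beside the 6 later genes of that cluster at 5.30 to 49.1 TPM.

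HoxD was divided by position into a stretch of low genes and a stretch of high genes. Hoxd1, Hoxd3 and Hoxd4, which lie at the anterior end, summed to 2.02, 1.15, 1.81 and 1.32 TPM in control and PEDF-treated MEFs of experiment 1 and control and PEDF-treated MEFs of experiment 2, the order in which values of the 4 libraries are given below. Hoxd8 to Hoxd13 summed to 90.8, 98.6, 87.9 and 83.9 TPM, which was 45.0 to 85.4 times as much. In each library the lowest of the 6 later genes was at least 5.08 times the highest of the 3 early ones. The gap between the annotated ends of Hoxd8 and Hoxd3, the neighbours on each side of this step, was 3993 bp. The gene models of Hoxd3 and Hoxd4 share 388 bp of exon on the same strand, and the protein-coding Gm28230, also on that strand and with 3, 0, 9 and 2 counts, covers 53.1% of the exon bases of Hoxd3 and 39.1% of those of Hoxd4. How reads in shared stretches were counted is not given in the sources used here, so the low counts of Hoxd3 and Hoxd4 (52 and 36 in all libraries together), and with them the size of the step, are uncertain.

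The 250 bases before the RefSeq start site (GRCm38.p6) are shown for Hoxd4 on the low side of the step, Hoxd8 on its high side and Hoxd13, the most abundant gene of the cluster. All are on the plus strand, at chr2:74721728-74721977, chr2:74704365-74704614 and chr2:74667975-74668224. Capitals mark each CG, the dinucleotide at which DNA is methylated.
Hoxd4: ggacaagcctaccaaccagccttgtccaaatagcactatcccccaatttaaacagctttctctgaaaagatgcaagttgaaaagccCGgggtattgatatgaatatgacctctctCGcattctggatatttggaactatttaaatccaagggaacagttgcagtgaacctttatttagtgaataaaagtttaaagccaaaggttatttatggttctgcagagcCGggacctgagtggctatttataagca
Hoxd8: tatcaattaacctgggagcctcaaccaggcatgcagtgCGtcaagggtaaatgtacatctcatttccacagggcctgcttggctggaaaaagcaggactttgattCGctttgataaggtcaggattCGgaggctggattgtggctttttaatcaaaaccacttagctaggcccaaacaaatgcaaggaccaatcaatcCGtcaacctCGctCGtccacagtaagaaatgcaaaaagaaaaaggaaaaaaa
Hoxd13: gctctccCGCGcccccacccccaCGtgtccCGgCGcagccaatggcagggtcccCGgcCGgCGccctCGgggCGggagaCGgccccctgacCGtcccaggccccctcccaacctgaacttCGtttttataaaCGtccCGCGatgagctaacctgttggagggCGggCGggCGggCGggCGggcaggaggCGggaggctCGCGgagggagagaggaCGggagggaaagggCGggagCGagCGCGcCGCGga
The sequences held 3, 6 and 31 CG. RefSeq promoters were matched for 22 of the 39 Hox genes, 24 start sites in all, and these held 2 to 35 CG with a median of 12.5, against a median of 6 over 32851 mouse promoters, 31.5% of which held as many as the Hox median. The CG count did not separate the low from the high genes of HoxD: Hoxd1, at a mean of 0.531 TPM, had 24 CG, and Hoxd3, at 0.523 TPM, had 12, while Hoxd8 was at 8.67 TPM with 6.

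The 12 anterior genes (paralogue groups 1 to 4), which pattern the hindbrain and neck in the embryo, gave 12.7% to 13.5% of the summed Hox level. Hoxb1, which acts in the hindbrain, had no count in any library, and a count of 0 allows up to 0.165 to 0.204 CPM (counts scaled to library size) at these depths, by counting error alone. Its HoxB neighbours were not low: Hoxb2 was at 11.4, 13.7, 14.5 and 15.3 TPM, Hoxb3 at 11.5, 14.1, 16.2 and 14.5 TPM and Hoxb4 at 12.1, 12.1, 11.7 and 11.9 TPM. Hoxb2 and Hoxb1 are 11739 bp apart. In HoxA, Hoxa2, Hoxa3 and Hoxa4 were detected at 4.20 to 8.64 TPM in every library. Hoxc4, the one anterior gene of HoxC, was at 10.4 to 12.8 TPM.

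The 11 central genes (groups 5 to 8), associated with the cervical and thoracic trunk and the forelimb level, gave 38.9% to 40.5% of the summed level, and none of them was below 5.04 TPM in any library. Hoxa5, a gene required for the lung and the neck and thoracic skeleton, was the most abundant of them at 42.3, 46.0, 41.2 and 44.4 TPM. Hoxc6 was at 33.0, 30.9, 36.7 and 38.7 TPM, Hoxa7 at 36.3, 35.9, 30.4 and 35.5 TPM and Hoxc8 at 25.9, 24.2, 24.2 and 28.2 TPM. The ranges of Hoxc6 and Hoxa7 overlapped, and both lay below that of Hoxa5 and above that of Hoxc8. Hoxb5 was the lowest of this group with 5.04 to 7.16 TPM. Group 5 drew 70.1% of its level from Hoxa5 and group 7 drew 73.6% from Hoxa7.

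The 16 posterior genes (groups 9 to 13), which pattern the lumbar to caudal trunk, the urogenital tract and the limbs, gave 46.7% to 47.6%. By the mean over the libraries, the most abundant Hox gene of all was Hoxb9, a thoracic patterning gene, at 47.8, 50.1, 62.0 and 59.5 TPM. It was followed by Hoxd13, which patterns the digits and the genital tubercle, at 49.6, 54.5, 48.2 and 44.2 TPM. Hoxd13 was above Hoxb9 in both libraries of experiment 1 and below it in both of experiment 2. The ranges of these genes overlapped across libraries, and that of Hoxd13 also overlapped with that of Hoxa5. Hoxa10 (29.6 to 32.6 TPM) and Hoxa11 (28.1 to 31.4 TPM), genes of the limb and the reproductive tract, came next, and Hoxc10, a lumbar and hindlimb gene, was at 18.6, 22.1, 22.4 and 26.6 TPM. Hoxc11, Hoxc12 and Hoxc13 had lower means of 5.95, 4.25 and 2.80 TPM. Hoxb13, which is separated from Hoxb9 by 74009 bp, was at 0.952, 1.20, 1.84 and 1.02 TPM.

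Within group 13, Hoxd13 supplied 76.1% of the level and Hoxa13 was at 10.8 to 11.8 TPM in every library. Group 9 was the most abundant paralogue group, with 14.9% of the Hox level, and Hoxb9 supplied 64.9% of it. When each gene's paralogue number was weighted by its TPM, the mean was 11.4 to 11.6 in HoxD, 7.59 to 7.71 in HoxC, 7.40 to 7.67 in HoxA and 6.53 to 6.66 in HoxB. The posterior genes accordingly made up 88.8% of the HoxD level, 42.8% of HoxA, 37.1% of HoxB and 36.1% of HoxC. These means and shares also depend on which paralogues a cluster holds. Posterior genes are 5 of the 9 in HoxD, 4 of 11 in HoxA, 2 of 10 in HoxB and 5 of 9 in HoxC.

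The 4 libraries showed nearly the same Hox profile. Pearson's r of log2(TPM + 1) over the 39 genes lay between 0.975 and 0.991 for the 6 pairs of libraries, against 0.995 to 0.997 for the other protein-coding genes. These correlations describe the profiles only, since genes do not vary independently of each other. The median gene differed by 0.120 to 0.176 on this log2 scale between a pair of libraries. The largest single difference was that of Hoxa6, a trunk gene of HoxA, which was at 6.77, 9.68, 18.6 and 8.13 TPM from 31, 48, 100 and 44 counts. The control library of experiment 2 stood above the other 3, and the difference between the control libraries was 1.33. The coefficient of variation over the libraries was 49.3% for Hoxa6, 28.1% for Hoxa2 and 73.9% for Hoxd1, which had 10, 7, 3 and 2 counts, whereas Hoxb4 varied by 1.65% and Hoxa10 by 4.27%.

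**Figure D2:**
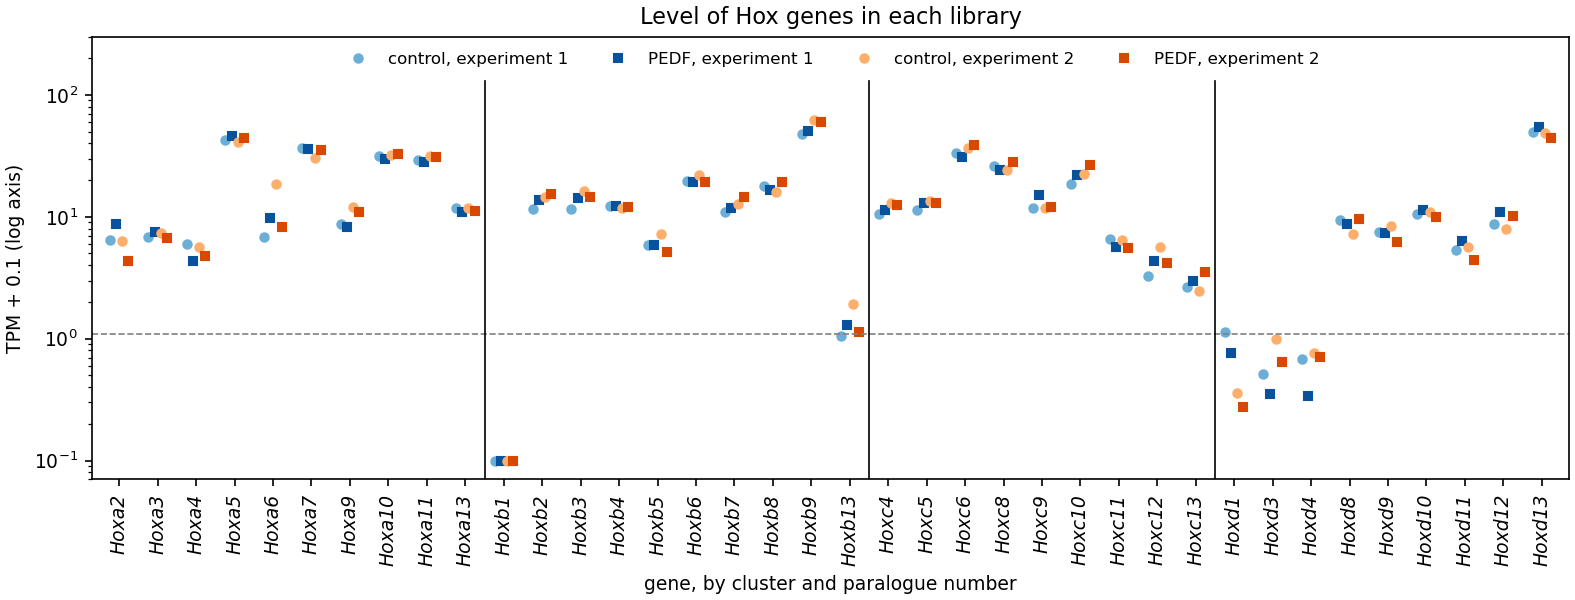
TPM + 0.1 on a log axis (vertical) of 38 Hox genes (horizontal, by cluster and paralogue number), with 1 point for each of the 4 libraries and a dashed line at 1 TPM. The points of Hoxa6, where control MEFs of experiment 2 (18.6 TPM) stand above the other libraries, of Hoxa2 (4.28 to 8.64 TPM) and of the low genes Hoxb13, Hoxd1, Hoxd3 and Hoxd4 are spread widely.

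Besides Hoxd3 and Hoxd4, other Hox exons also lie in annotated genes. On the same strand, Hoxa2 shares 267 bp of exon with Gm28308 and Hoxd11 shares 455 bp with Gm28309, and neither partner had a count. Hoxc10 and Hoxc5 share 166 bp. Hoxb3 shares 52.9% of its exon bases with the antisense gene Hoxb3os, which had 366, 469, 595 and 555 counts, and Hoxb2 shares 27.3% with it. Hoxa11 shares 35.0% with Hoxa11os, which had 199, 227, 288 and 276 counts, and Hoxa7 shares 20.4% with Hoxaas3, which had 152, 149, 136 and 204 counts. The libraries were directional, but the strand setting of the counting is not given in the sources used here, so the split of reads between Hoxb3, Hoxb2, Hoxa11 or Hoxa7 and their antisense partners is uncertain. Among 46 other genes annotated inside the clusters, 22 had enough counts for a test. Gm53, with 221, 211, 344 and 278 counts, was the second most counted of them after Hoxb3os. Hotair, a long noncoding RNA of the HoxC cluster, had 3 to 6 counts a library.

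The clusters also carry the microRNA genes of the miR-10 and miR-196 families, which are known to repress Hox transcripts. The mature 5p sequences are shown with the seed, bases 2 to 8, in capitals, since the seed sets which sites in a transcript can pair. In GRCm38.p6 the mature miR-10a lies at chr11:96317186-96317208, miR-10b at chr2:74726074-74726096, miR-196a at chr11:96265187-96265208 in HoxB and at chr15:102973365-102973386 in HoxC, and miR-196b at chr6:52230129-52230150, the last on the minus strand.
miR-10a-5p: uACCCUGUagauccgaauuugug
miR-10b-5p: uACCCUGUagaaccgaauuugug
miR-196a-5p: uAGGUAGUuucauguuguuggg
miR-196b-5p: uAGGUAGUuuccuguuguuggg
The 2 families have 1 seed each, which pairs with ACAGGGT for miR-10 and with ACTACCT for miR-196. The longest annotated 3′ untranslated region (UTR) of 9 of the 39 Hox genes held the miR-196 match on the transcribed strand, or 23.1%, among them Hoxa5, Hoxa7, Hoxa9, Hoxb6, Hoxb7 and Hoxc8, against 6.10% of 20993 protein-coding genes. The miR-10 match was held by 4 Hox genes, Hoxa3 and Hoxb3 among them, or 10.3% against 12.5% of all genes. The median length of these regions was 966 bases for the Hox genes and 961 bases for all genes.

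The site with the closest match to miR-196a along its whole length was in Hoxb8, at chr11:96284888-96284909 on the plus strand. It is shown with the bases that match the complement of the microRNA in capitals, beside a seed match of Hoxa7 (chr6:52215210-52215232, minus strand) and one of Hoxc8 (chr15:102993732-102993754, plus strand) with the seed match in capitals.
Hoxb8: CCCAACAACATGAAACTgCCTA
Hoxa7: tactactagccctaaACTACCTa
Hoxc8: ataaatctttaacatACTACCTa
The Hoxb8 site matched 21 of 22 bases, and no other of the 20993 genes matched as many without gaps. The one difference was A18G, with the base of the complement first and positions counted from the 5′ end of the site. Hoxd8, the next Hox gene, matched 15. These are matches of letters, and mature microRNAs were not measured by the polyadenylated RNA libraries. Hoxb8 was at 17.7, 16.6, 15.8 and 19.2 TPM, Hoxa7 held 4 seed matches at a mean of 34.5 TPM, and the 9 genes with a miR-196 seed match ranged from no count (Hoxb1) to a mean of 43.5 TPM (Hoxa5). The gene Mir196a-1 of HoxB had 14, 13, 38 and 23 counts, Mir196a-2 of HoxC had 2, 0, 0 and 0, Mir10a had 2, 0, 3 and 0, and Mir10b and Mir196b had none.

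PEDF was compared with control over the 4 libraries to ask whether the positional profile of the MEFs changed within 24 h. No Hox gene passed. The edgeR quasi-likelihood test called 0 of 38 tested Hox genes at an adjusted p under 0.05, against 0.00516% of all tested genes (1 of 19384). At an unadjusted p under 0.05 it found 0 Hox genes, against 6.88% of all genes, and DESeq2 found 0 at either limit, against 2.14% of all genes at the unadjusted one. Of the 38 genes, 21 had a higher and 17 a lower fitted level with PEDF, and the median log2 fold change was 0.027, against 0.0012 over all tested genes. With the experiment as a replicate block, 3.75% of all genes were called and again 0 Hox genes, and 2 Hox genes (5.26%) were found at an unadjusted p under 0.05, against 14.6% of all genes.

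The intervals set how large a change could have been present. For 32 of the 38 Hox genes the 95% interval of the fold change without the block lay inside 2-fold in both directions, and for 20 of them inside 1.41-fold. The exceptions to the first limit were Hoxa6, Hoxb13, Hoxc13, Hoxd1, Hoxd3 and Hoxd4. For Hoxb9 the log2 fold change was 0.019 with an interval of -0.21 to 0.25, and for Hoxd13 it was 0.040 with an interval of -0.19 to 0.27. By cluster, the median log2 fold change was -0.014 in HoxA, 0.035 in HoxB, 0.082 in HoxC and -0.0089 in HoxD, and each cluster held both higher and lower genes.

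The smallest unadjusted p-values were those of Hoxd12 and Hoxc10, which are singled out after their values were seen. Hoxd12, a digit gene, was at 8.66, 10.8, 7.88 and 10.0 TPM, so that both PEDF libraries were above both controls. Its log2 fold change was 0.36 ± 0.17 (SE; edgeR adjusted p = 0.730), and with the replicate block the adjusted p was 0.268. For Hoxc10 the log2 fold change was 0.27 ± 0.14 (adjusted p = 0.740 by edgeR, 0.274 with the block). Its control level in experiment 2 (22.4 TPM) was above its PEDF level in experiment 1 (22.1 TPM), so the groups overlapped.

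Within the experiments, the Hox genes showed no common direction. In experiment 1 the PEDF library was above its control for 25 of 38 Hox genes, with a median log2 ratio of 0.12, and in experiment 2 for 15 of 38, with a median of -0.070. Over all genes 50.0% and 51.4% were higher. The sign was the same in both experiments for 18 of the 38 (47.4%), against 59.1% of 18843 genes. In experiment 1 the exact binomial interval, which covers counting error only, excluded 0 for Hoxb2, Hoxb3, Hoxc9, Hoxc10 and Hoxd13, all higher, with log2 ratios of 0.18 to 0.40. These are 13.2% of the 38, against 19.9% of all genes. In experiment 2 it excluded 0 for Hoxa7, Hoxb8, Hoxc8, Hoxc10, Hoxd8 and Hoxd12, which were higher by 0.23 to 0.41, and for Hoxa6 (-1.18) and Hoxb5 (-0.50), which were lower, together 21.1% against 25.3% of all genes. Hoxc10 was the one gene in both lists, with log2 ratios of 0.29 and 0.26, and 7.48% of all genes excluded 0 in the same direction in both experiments. The signs were opposite and the intervals did not overlap for 2 Hox genes (5.26%), Hoxa6 and Hoxb3, against 3.81% of all genes. With 1 library a condition within an experiment, none of these ratios has a replicate check.

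**Figure D3:**
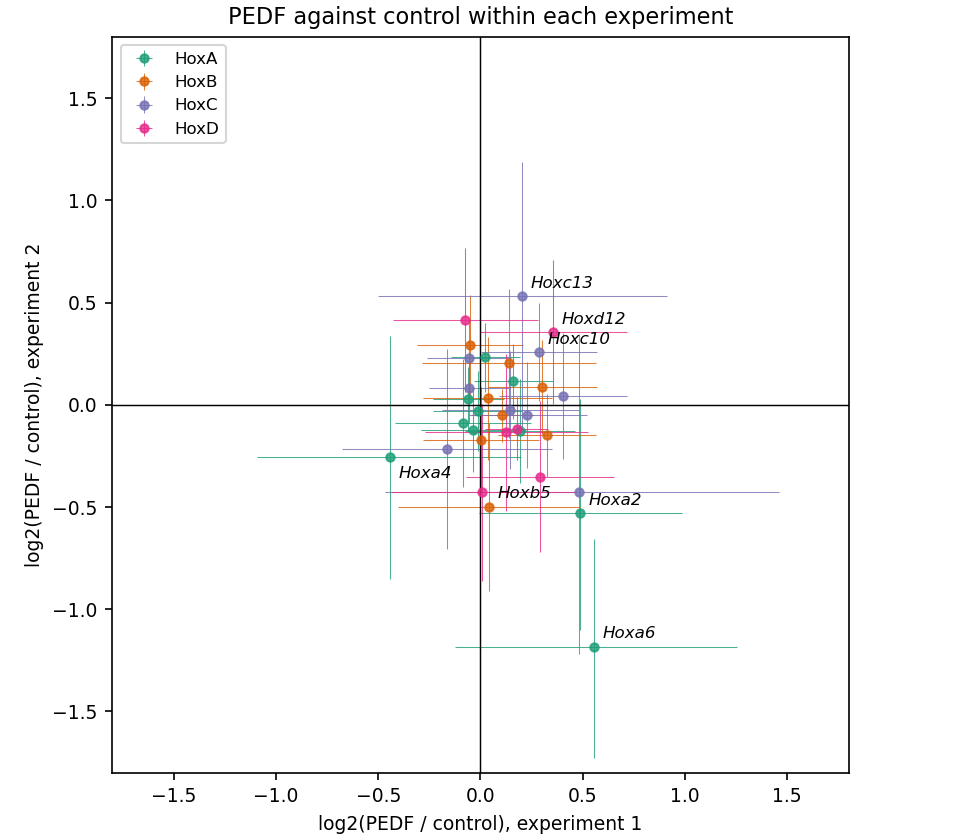
log2 ratio of the PEDF library to its control in experiment 1 (horizontal) and experiment 2 (vertical) for 33 Hox genes with at least 100 counts in all libraries together, coloured by cluster. Bars are exact binomial intervals of the counts at 95%. Hoxa6 stands lowest, at 0.56 and -1.18, and Hoxc10 and Hoxd12 lie in the quadrant of genes higher with PEDF in both experiments.

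The MEF preparations of experiments 2 and 1 were also compared. The control and PEDF libraries of an experiment served as its replicates, so the preparation itself was not replicated. Without a term for treatment edgeR called 0 of 38 Hox genes at an adjusted p under 0.05, against 0.0567% of all tested genes (11 of 19384). At an unadjusted p under 0.05 it found 5 Hox genes (13.2%, against 7.67% of all genes), Hoxa9, Hoxb9, Hoxd13, Hoxd1 and Hoxa2, whereas DESeq2 found 2 (5.26%, against 2.69% of all genes) and called 0. With treatment as a term 4.49% of all genes were called, and of the Hox genes Hoxa9 and Hoxb9, both higher in experiment 2. In that fit 7 Hox genes (18.4%) had an unadjusted p under 0.05, against 14.8% of all genes.

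Hoxa9, a posterior gene of the trunk and of blood precursors, was at 8.55, 8.12, 11.9 and 10.9 TPM, and both libraries of experiment 2 lay above both of experiment 1. Its log2 difference between experiments was 0.40 ± 0.12 (SE; edgeR adjusted p = 0.488), and 0.40 ± 0.11 (adjusted p = 0.0161) with treatment as a term. Hoxb9 was likewise above in both libraries of experiment 2, at 62.0 and 59.5 TPM against 47.8 and 50.1 TPM, with a difference of 0.26 ± 0.087 (adjusted p = 0.532) that became 0.26 ± 0.073 (adjusted p = 0.0159) with the term. Hoxd13 was lower in experiment 2, with a difference of -0.23 ± 0.095 (edgeR adjusted p = 0.600, 0.0614 with the term, and 0.223 with length trends also removed). The difference was -0.37 between the PEDF libraries and -0.081 between the controls, where the counting interval of -0.24 to 0.074 included 0, and without the PEDF library of experiment 1 the fitted difference was -0.14.

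Hoxa2, a hindbrain and branchial arch gene, was at 6.34, 8.64, 6.22 and 4.28 TPM, with both libraries of experiment 2 below both of experiment 1 (log2 difference -0.57 ± 0.26, adjusted p = 0.638 by edgeR). The controls differed by -0.069 and the PEDF libraries by -1.09. The fitted difference was -0.31 or -0.34 without the PEDF library of experiment 1 or 2, and -0.86 without the control of experiment 2. Hoxd1 had 10 and 7 counts in experiment 1 and 3 and 2 counts in experiment 2. The ratio of its control libraries was -2.01 on the log2 scale, with a counting interval of -4.51 to -0.053, and that of its PEDF libraries had an interval of -5.31 to 0.39, which includes 0. Its fitted log2 difference between experiments was -1.95 ± 0.88 (SE; edgeR adjusted p = 0.638).

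By cluster, the median log2 difference of experiment 2 from experiment 1 was 0.19 in HoxB and 0.054 in HoxC, where 7 of 9 tested genes were higher in each, -0.022 in HoxA and -0.17 in HoxD. All 6 genes from Hoxd8 to Hoxd13 had a lower fitted level in experiment 2, by -0.083 to -0.28, although none of them had an adjusted p under 0.05 in either fit and the direction was shared by both pairs of libraries only for Hoxd12 and Hoxd13. Between the controls Hoxd9, Hoxd10 and Hoxd11 were higher in experiment 2, at 0.12, 0.013 and 0.041, and between the PEDF libraries Hoxd8 was higher, at 0.057. Hoxd3 and Hoxd4 had a higher fitted level in experiment 2, at 1.05 and 0.57 (edgeR adjusted p = 0.708 and 0.886), and were higher in both pairs of libraries, from few counts. The differences between clusters were not tested. Over all tested genes the median was -1.8e-05.

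**Figure D4:**
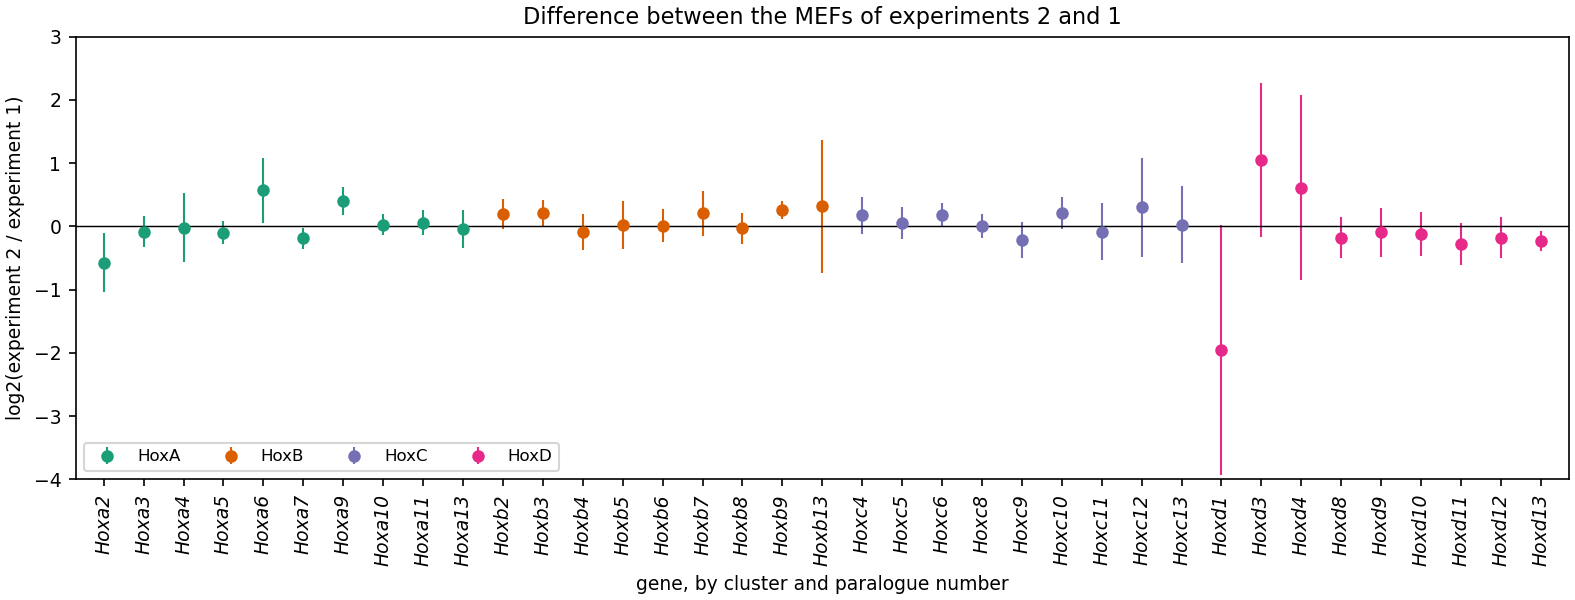
log2 difference between the MEFs of experiments 2 and 1 (vertical, edgeR with treatment as a term) for 37 tested Hox genes (horizontal, by cluster and paralogue number). Bars are 95% intervals. Those of Hoxa6, Hoxa9, Hoxb9 and Hoxc6 lie above 0 and those of Hoxa2, Hoxa7 and Hoxd13 below 0, of which Hoxa9 and Hoxb9 had an adjusted p under 0.05, and the widest belong to Hoxd1, Hoxd3 and Hoxd4, which had the fewest counts.

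The cultures of the 2 experiments also differed in other features that move with these values. Xist, the RNA of the inactive X chromosome, had 39 and 9 counts in experiment 1 and 3479 and 2332 in experiment 2, and the Y-linked Ddx3y was at 40.4 and 42.5 TPM against 26.2 and 26.4 TPM. All 4 epithelial markers were detected in every library, and their sum was 38.7 to 40.5 TPM in experiment 1 and 24.3 to 27.7 TPM in experiment 2. Most of this sum was Krt8, at 34.0, 32.0, 19.3 and 23.1 TPM. Cdh1 and Krt14 were also lower in experiment 2, at 1.38 to 2.27 TPM against 2.06 to 3.13 TPM, whereas Epcam was at 1.25 to 1.37 TPM in every library. The 4 muscle markers summed to 286 to 311 TPM in experiment 1 and 359 to 391 TPM in experiment 2. The part of these features in the differences of Hoxa9, Hoxb9 and the HoxD genes was not tested.

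Genes that act with, on or beside the Hox genes were examined as lists. All 9 Hox cofactors of the Pbx, Meis and Pknox families, which bind DNA together with Hox proteins, were at or above 1 TPM in every library, and 0 of 9 were called by edgeR in either comparison, with or without the second term. At an unadjusted p under 0.05 and without the second term, edgeR found 0 of them for PEDF and 1 between experiments, where it found 6.88% and 7.67% of all genes. Of 26 tested regulators of the Hox clusters (Polycomb and trithorax proteins, retinoic acid enzymes and receptors), 0 were called for PEDF without the block and 2 with it, where 3.75% of all tested genes were called. These were Kmt2a, the trithorax methyltransferase that maintains Hox expression, at -0.32 (adjusted p = 0.000118 by edgeR), and Cyp26b1, an enzyme that degrades retinoic acid, at -0.21 (adjusted p = 0.0331). Neither was called once a trend with gene length was also removed. At an unadjusted p under 0.05 and without the block, 3 of the 26 were found, against 6.88% of all genes. Between experiments, 0 were called without a second term and 2 with treatment as a term (4.49% of all genes), Kdm6a, an X-linked demethylase that opposes Polycomb, at 0.36 (adjusted p = 0.00763 by edgeR) and Cyp26b1 at -0.20 (adjusted p = 0.0460).

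Of 44 tested transcription factors of the limb and other body regions, 0 were called for PEDF by edgeR with or without the block, and 1 (2.27%) was found at an unadjusted p under 0.05 without it, against 6.88% of all genes. Between experiments, 0 were called without a second term and 7 with treatment as a term, 1 higher and 6 lower in experiment 2, where 4.49% of all genes were called. They included Msx1 (-0.51, edgeR adjusted p = 1.67e-05) and Foxd1 (-0.39, adjusted p = 0.000256), whereas Shox2, a gene of the upper limb segment, was higher by 0.34 (adjusted p = 0.0154). The forelimb gene Tbx5 was at 7.80, 8.41, 7.98 and 8.29 TPM, and the hindlimb genes Tbx4 and Pitx1 were at 14.0 to 16.7 TPM and 40.1 to 48.0 TPM, so that markers of both limbs were present in every library. Of 13 tested genes that flank the clusters, Hibadh was called for PEDF with the block (0.28, adjusted p = 0.0310 by edgeR) and Lnpk between experiments with treatment as a term (0.28, adjusted p = 0.0444), where 3.75% and 4.49% of all genes were called. Of the 22 tested other genes inside the clusters 0 were called by edgeR in either comparison, with 1 (4.55%) at an unadjusted p under 0.05 in each when no second term was fitted, against 6.88% and 7.67% of all genes.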

How the data were processed

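Gene-level counts of 4 MEF libraries were analysed. The authors aligned the trimmed paired reads with HISAT2 and deposited counts per gene made with featureCounts, without normalization, and TPM values. The submitters' processing notes name FastQC 0.11.7, Trimmomatic 0.38, HISAT2 2.1.0, SAMtools 1.9, featureCounts 1.6.3 and the build mm10, which is GRCm38. TPM recomputed from the counts and GENCODE M21 exon lengths were 0.999 times the deposited TPM. The strand setting is not given in the sources used here. How reads shared by overlapping genes were assigned was set by that counting.

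All 55487 genes entered the tables, and the 19384 with at least 10 counts in total were tested, among them 38 of 39 Hox genes. Counts were fitted in R 4.3.3 with edgeR 4.0.16 (TMM factors, robust quasi-likelihood test, Benjamini-Hochberg adjustment over all tested genes). Standard errors came from the fold change and the F statistic. The study names no covariate, so none was used first. The labels number the experiments, the design text of the series gives each experiment its own embryos, and libraries of an experiment deviated together: Pearson's r between the experiment differences of the control libraries and those of the PEDF libraries was 0.423 over 10722 genes and 0.365 over 22 Hox genes, across genes that do not vary independently. The experiment was therefore also fitted as a replicate block. With 2 libraries a condition, p-values for PEDF without the block reflect the spread between these 2 preparations. In the comparison of experiments they reflect the spread between libraries of the same preparation, and the preparation itself has no replicate. With the second factor as a term, they reflect the spread that remains after both factors are fitted.

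Alternatives were DESeq2 1.42.0, RLE factors, no filter (at least 1 count), filterByExpr, limma 3.58.1 on log2(TPM + 1) and log2(TPM + 0.1), the second factor as a term, the same with a trend of each library with gene length removed (splines with 5 degrees of freedom), and each library left out. Fits were tested on simulated data. Ratios within an experiment carry exact binomial intervals at 95%, and intervals and limits of a count of 0 (3 counts) cover counting error only.

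Full statistics are given for Hox genes with an unadjusted p under 0.05 without the second term or an adjusted p under 0.05 with it, for list genes with an adjusted p under 0.05 in either fit (at most 5 a list), and counts for the noncoding cluster genes counted most. Other genes named with statistics were chosen after their values were seen. The members and lists were chosen with earlier results of these data known. Promoter and microRNA sequences are from RefSeq (GRCm38.p6), matched by symbol, and untranslated regions from GENCODE M21. Sequence was handled in Python 3.11.15. 1 gene of the set entered the fits and counts and is not reported here by name.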

Additional observations from a re-analysis of the deposited data

Results flagged for a closer look

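The log2 ratio of PEDF to control had opposite signs in the 2 experiments for Hoxa6, with 0.56 in experiment 1 and -1.18 in experiment 2, and for Hoxb3, with 0.32 and -0.15. The counting intervals of the 2 experiments did not overlap for either gene. The interval included 0 for Hoxa6 in experiment 1 (-0.13 to 1.26) and for Hoxb3 in experiment 2 (-0.35 to 0.054). In experiment 2 Hoxa6 had 100 counts in the control library and 44 in the PEDF library, against 31 and 48 in experiment 1. These 2 are 5.26% of the 38 tested Hox genes, and 3.81% of all genes had opposite signs and such intervals. The median log2 ratio of the 38 tested Hox genes was also opposite in sign, 0.12 in experiment 1 and -0.070 in experiment 2. With 1 library of each kind in an experiment, these differences between the experiments were not tested.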

How the results depend on the processing

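For PEDF against control, 0 Hox genes were called under every alternative with 2 libraries a condition that gave an adjusted p (range 0 to 0). These were RLE factors, no filter, filterByExpr, DESeq2 without a block and limma on TPM. The replicate block in edgeR, with or without length trends removed, also gave 0. Calls with a library left out are not given, since 1 group then holds 1 library and the spread comes from the other group alone. DESeq2 with the experiment or the treatment as a term gave no adjusted p for any Hox gene. The median log2 fold change of the tested Hox genes was 0.027, 0.021 with the replicate block and -0.038 with length trends also removed, and -0.010 to 0.049 with a library left out. Between experiments the count of Hox genes called was 0, but 2 with treatment as a term in edgeR and 2 with length trends also removed. With a library left out, the fitted log2 difference was 0.33 to 0.45 for Hoxa9 and 0.20 to 0.31 for Hoxb9. Hoxa9 and Hoxb9 had adjusted p-values of 0.0342 and 0.00267 with the term and length trends removed. In the paired fits, no other call among the Hox genes differed. All calls rest on 2 libraries a condition, and genes with few counts, such as Hoxd1, Hoxd3, Hoxd4 and Hoxb13, have intervals too wide to show changes below 2-fold. The number of genes at or above 1 TPM in all libraries was 34, and 35 at 0.5 TPM and 34 at 2 TPM.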
